A study of Mus musculus with 36 samples.

Results

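Germ cell genes and pluripotency factors were examined at their promoters in the B3 pre-B cell line. The set was a list of 34 genes, and a promoter was measured where a CpG cluster, a run of listed CpG positions at most 100 bp apart, overlapped the 1000 bp on either side of an annotated transcription start. By this rule 16 of the 34 genes had a cluster, and Dazl had 2, which gave 17 clusters of the 18009 in the data. DNA methylation was measured by reduced representation bisulfite sequencing (RRBS), in which the enzyme MspI cuts at CCGG and only short, CpG-rich fragments are sequenced. Each value is the level the authors smoothed over neighbouring positions, given here in percent. B3 is a mouse pre-B lymphocyte line. In the Ikaros series it was transduced with an MSCV retrovirus for HA-tagged Ikaros fused to the hormone-binding domain ERt2, with an IRES and GFP, so that Ikaros enters the nucleus once 4-hydroxy-tamoxifen (4-OHT) is added. The Control series carried the same vector with ERt2, IRES and GFP but no Ikaros. Both were pools of cells sorted for GFP, and both were given 0.5 uM 4-OHT for 2, 6, 12, 18 or 24 h. The sample labels also list 4-OHT at 0 h, whereas the study's methods describe the 0 h cultures as untreated. There were 36 libraries, 3 for each of 12 conditions. The time courses were repeated as separate batches and, by the study's methods, the 0 h cells were collected apart from them, also in batches, so that a difference of 0 h from the later times and one of collection cannot be told apart. The labels list batches 1, 2 and 4 at 0 h and 1, 3 and 4 at the later times.

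Genes used only in germ cells, such as those for meiotic chromosome pairing and the piRNA pathway, often have CpG-rich promoters. In most somatic cells these promoters acquire DNA methylation in the early embryo, and the genes are then not transcribed. The piRNA pathway makes small RNAs that silence transposons in the germ line, while the pluripotency factors maintain the early embryo and its stem cells. Transcripts were not analysed here, so the values give the methylation of the promoters and not whether the genes were silent. In a bulk sample, a few cells without methylation and a slightly lower level in every cell cannot be told apart.

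The measured promoters were those of germ cell genes only. All 6 listed pluripotency factors (Pou5f1, Nanog, Zfp42, Dppa2, Dppa3 and Dppa4) lacked a cluster, and nothing below bears on them. No cluster was found either for Brdt, Dpep3, Mov10l1, Piwil1, Piwil2, Rnf212, Stk31, Stra8, Syce1, Tdrd1, Tdrd9 and Tdrkh. The distance from their main start to the nearest cluster ran from 3761 bp for Tdrd1 to 372499 bp for Dppa4. The promoters without a cluster held fewer CpGs. In the 2 kb around the main start their median was 50 CpGs and 4 CCGG sites over 18 genes, against 70.5 CpGs and 8.5 CCGG sites over the 16 genes with a cluster. The ratio of observed to expected CpGs was 0.424 and 0.551, respectively.

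The 200 bp before the start are shown for 5 promoters, because they hold the CpGs whose levels are described further down. They were read from GRCm38, 5′ to 3′ on the strand of the gene, up to the base before its most upstream annotated start, and contain no annotated exon. Capitals mark the CpGs listed in the data. In Hormad1 and Sycp1 every listed CpG had a mean level over 95%. Mael, Tex101 and Slc25a31 each had a stretch with lower levels.
Sycp1 (chr3:102936101-102936300, minus strand): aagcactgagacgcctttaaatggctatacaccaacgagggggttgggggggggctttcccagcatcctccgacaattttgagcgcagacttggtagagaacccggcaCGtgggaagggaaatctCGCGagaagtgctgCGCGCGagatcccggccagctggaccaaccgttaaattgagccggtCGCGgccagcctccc
Hormad1 (chr3:95559477-95559676, plus strand): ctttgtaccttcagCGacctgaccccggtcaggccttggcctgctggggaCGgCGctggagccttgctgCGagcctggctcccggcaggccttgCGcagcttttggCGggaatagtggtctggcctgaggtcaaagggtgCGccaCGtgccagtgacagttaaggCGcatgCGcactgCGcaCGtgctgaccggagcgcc
Mael (chr1:166238748-166238947, minus strand): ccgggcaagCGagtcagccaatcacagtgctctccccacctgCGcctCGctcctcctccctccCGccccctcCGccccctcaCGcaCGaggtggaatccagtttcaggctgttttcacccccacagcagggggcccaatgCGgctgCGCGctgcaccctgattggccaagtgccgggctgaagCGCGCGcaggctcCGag
Tex101 (chr7:24672051-24672250, minus strand): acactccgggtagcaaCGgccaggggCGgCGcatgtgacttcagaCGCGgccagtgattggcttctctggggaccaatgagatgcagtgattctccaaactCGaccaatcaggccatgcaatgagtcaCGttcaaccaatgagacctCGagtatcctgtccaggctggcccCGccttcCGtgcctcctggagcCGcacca
Slc25a31 (chr3:40708655-40708854, plus strand): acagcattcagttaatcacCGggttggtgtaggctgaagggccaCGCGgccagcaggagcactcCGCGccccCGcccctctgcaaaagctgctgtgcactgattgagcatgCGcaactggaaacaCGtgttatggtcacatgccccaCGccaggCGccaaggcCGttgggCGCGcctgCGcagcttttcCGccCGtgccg

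A pair of short motifs was counted on both strands of the RefSeq promoter windows (250 bp before to 50 bp after the start, GRCm38.p6). GCGGGA is the core bound by E2F factors, among them the repressor E2F6, and CACGTG is the E-box bound by MAX and its partners. They can overlap by 1 base at most. Of the 34 listed genes 29 had a window. GCGGGA was present in 9 of the 15 promoters with both a window and a cluster, and in 22.0% of all 27025 genes. CACGTG was present in 8 of these 15, against 8.09% of all genes. Both motifs occurred together in 7 of the 15 (Ddx4, Hormad1, Mael, Slc25a31, Stag3, Sycp1 and Sycp3), against 2.32% of all genes. Among the 14 genes with a window but no cluster, 1 had GCGGGA and 7 had CACGTG. These shares are descriptions, and the part that the CpG content of the promoters has in them was not tested. In the sequences shown, the CpG inside the CACGTG at base -94 of Sycp1 had a level of 99.4% ± 2.1 (SD, n = 32 libraries). In Hormad1 the CpGs inside the GCGGGA at -95 and the CACGTG at -57 and -20 had levels of 97.4%, 97.4% and 97.7%. The CpG in the CACGTG at -77 of Slc25a31 was at 97.6% ± 2.3 (SD, n = 36). The lowest value was found in Mael, where the CpG within the reverse GCGGGA at -140 was at 87.2% ± 3.0 (SD, n = 35).

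A few libraries stood apart and are named here first. Empty values made up a median of 0.323% of the listed positions in the Control series and 0.342% in the Ikaros series, but 11.6% in Control 0 h replicate 1, 5.41% in Control 0 h replicate 3 and 3.18% in Ikaros 24 h replicate 2. In 3 further Control libraries, replicate 3 at 2, 12 and 18 h, they made up 2.79% to 2.92%. Control 24 h replicate 2 did not lie with its series. Over the 832 clusters that differed between the series without it, its M-values lay 75.3% of the distance that separates the mean of the Control series from that of the Ikaros series, while the other Control libraries lay between -5.66% and 6.54%. It was kept under its label, and the tests whose fit holds it were repeated without it. Over the same clusters Ikaros 24 h replicate 2 lay at 124%, and the other Ikaros libraries between 87.3% and 112%. Those of 0 h were at 99.1%, 93.1% and 99.2%. All Ikaros libraries were part of the fit that picked these clusters. Of the 12 B-lineage marker genes examined, only Ebf1 had a promoter cluster, at a level of 0.205%, so these data hardly check the cell type. The tables give no coverage by position, and the precision of a level is known only from the spread between libraries.

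The 17 germline clusters were all almost fully methylated. Their mean levels over the 36 libraries ran from 92.2% for Tex101 to 97.8% for the upstream cluster of Dazl, with a median of 96.1%. Of the 612 values (17 clusters in 36 libraries), 432 were over 95%, 14 were under 90% and 1 was under 80%. The SD over libraries ran from 0.701 to 3.92 percentage points, with a median of 1.76, and the median SD of all clusters with a mean over 90% was 1.59. Averaged over the 17 clusters, the Ikaros libraries ran from 95.1% to 97.3% with a median of 96.0%, and the Control libraries from 95.4% to 96.8% with a median of 95.9%. The ranges of the series overlapped at all 17 clusters. With 18 libraries in each series such an overlap does not show that the series were equal. Its share over all clusters was not counted.

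**Figure D1:**
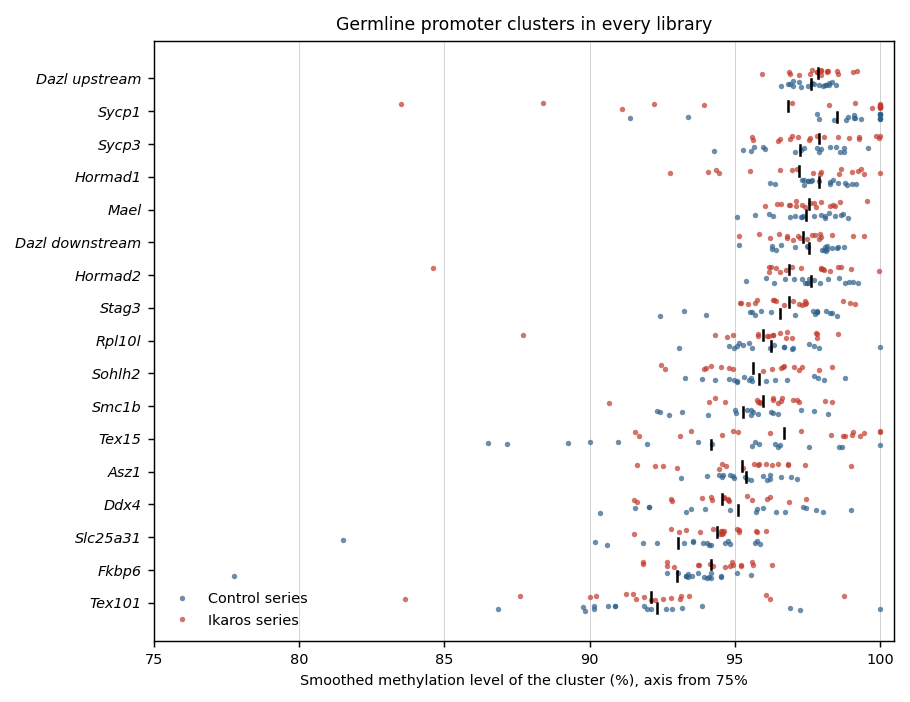
Smoothed methylation level (%, axis from 75%) of each of the 17 germline promoter clusters in every library, 18 of the Control series (blue) and 18 of the Ikaros series (red). Black bars are the series means, all of which lie between 92.1% and 98.5%, and the lowest single value is 77.7%, Fkbp6 in a Control library.

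High levels are common among the clusters as a whole. Of the 16734 clusters with a value in every library, 6728 (40.2%) had a mean over 90%. At promoters they are less so. With 1 main start per protein-coding gene, 10590 genes had a level, the median was 0.704%, 66.3% were under 10% and 25.6% over 90%. By the same measure 15 listed genes had a level (Tex15 had its cluster at another start) and 15 of 15 were over 90%. Among CpG-rich promoters, those with a 500-bp stretch of observed to expected CpG over 0.75 and GC over 55%, 23.8% of 9490 genes were over 90%, as were 10 of 10 listed genes. Among promoters of intermediate CpG content the share was 41.4% of 1083 genes, and 5 of 5 listed genes. The list was drawn up with earlier results of these data known, so these shares describe its genes and were not tested.

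**Figure D2:**
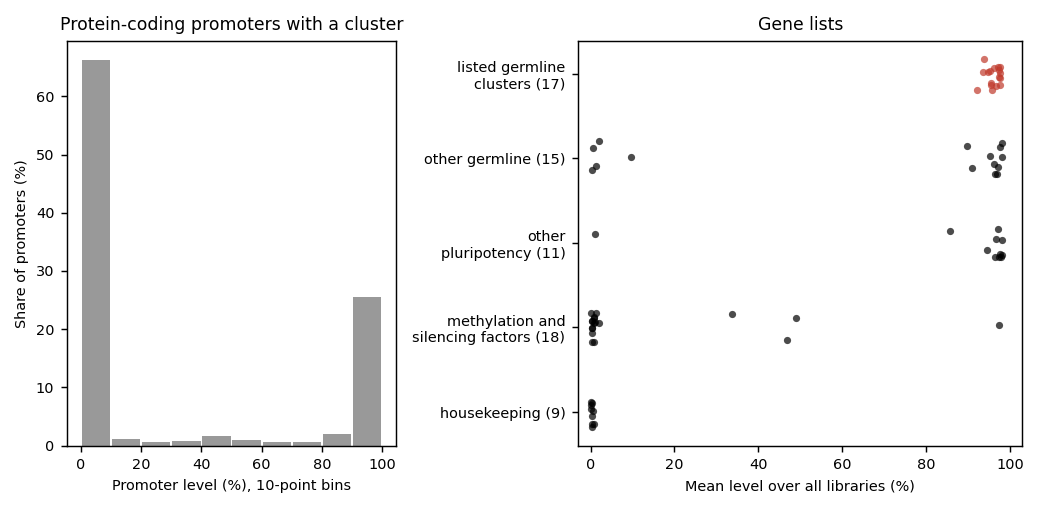
Left, share of protein-coding promoters with a cluster (%) by 10-point bins of their level, with 66.3% in the lowest bin and 25.6% in the highest. Right, mean level over all libraries (%) of each listed germline cluster (red) and of each promoter of the other gene lists (black, number of promoters in brackets), where the 9 housekeeping promoters lie under 1%.

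Among the germ cell RNA-binding proteins and regulators, Dazl, Ddx4 and Sohlh2 had clusters (3 of 5 listed genes). Dazl, an RNA-binding protein that promotes translation in germ cells, has 2 clusters on the minus strand, 1 at each of its annotated groups of starts. The upstream one, chr17:50293328-50293616, ran from 95.9% to 99.2% with a median of 98.0% in the Ikaros series and from 96.6% to 98.5% with a median of 97.7% in the Control series. It was the least variable of the 17, with an SD of 0.701 percentage points. The downstream one, chr17:50292775-50293203, had series means of 97.4% ± 1.1 for Ikaros and 97.5% ± 1.0 for Control (SD, n = 18 each). Ddx4, the RNA helicase known as Vasa that marks germ cells, had a cluster over its start at chr13:112652173-112652503. Its levels ran from 91.5% to 97.5% with a median of 94.7% in the Ikaros series and from 90.3% to 99.0% with a median of 95.8% in the Control series. The transcription factor gene Sohlh2, which acts in early germ cell differentiation, had a cluster at chr3:55181998-55182738 with means of 95.6% ± 1.8 and 95.8% ± 1.5 (SD, n = 18 each).

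The genes of the meiotic chromosome axis, synapsis and cohesion were the best covered group, with 6 of 8 genes. Sycp3, of the lateral elements of the synaptonemal complex that holds homologous chromosomes together, had means of 97.9% ± 1.4 in the Ikaros and 97.3% ± 1.5 in the Control series (SD, n = 18 each) at chr10:88459672-88460127. Sycp1, the transverse filament of the same structure, was at 100% in several libraries of both series but as low as 83.5% in Ikaros 24 h replicate 3 and 88.4% in Ikaros 12 h replicate 2 (chr3:102935822-102936191). Its median was 99.9% in the Ikaros series and 99.1% in the Control series. Hormad1 and Hormad2, axis proteins needed for synapsis checks, were at 97.2% ± 2.1 and 96.9% ± 3.3 in the Ikaros series and at 97.9% ± 0.8 and 97.6% ± 1.1 in the Control series (chr3:95559469-95559801 and chr11:4440894-4441132; SD, n = 18 each). The value of 84.6% for Hormad2 in Ikaros 24 h replicate 2 set its spread, and the other 17 Ikaros libraries had a mean of 97.6% ± 1.1. The cohesin genes Smc1b and Stag3, whose products join sister chromatids in meiosis, had means of 96.0% ± 1.7 and 96.9% ± 1.2 in the Ikaros series, and 95.3% ± 1.7 and 96.6% ± 1.9 in the Control series. Both clusters lay within 1000 bp of starts of other genes, Ribc2 for Smc1b (chr15:85131690-85132231) and Gpc2 and Gm43720 for Stag3 (chr5:138279709-138280202).

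In the piRNA pathway 4 of 10 genes had a cluster. Mael, a factor of piRNA biogenesis and transposon silencing, was at 97.6% ± 0.9 in the Ikaros and 97.5% ± 1.1 in the Control series (chr1:166238437-166238937; SD, n = 18 each). Asz1, a mitochondrial scaffold of the same pathway, was at 95.3% ± 1.9 and 95.4% ± 1.1 (chr6:18108946-18109159). Fkbp6, a co-chaperone of the pathway, had a median of 94.5% in the Ikaros series and 93.8% in the Control series (chr5:135349710-135349998). Its lowest value, 77.7% in Control 0 h replicate 1, was that of the library with the most empty positions, whose part in the value was not tested, and without it the Control mean was 93.9% ± 0.7 (SD, n = 17). Tex15, needed for transposon methylation in male germ cells, had its cluster at chr8:33517200-33517774, over an alternative start and not within 1000 bp of the main one. Only 2 of its 32 listed positions had a value in all libraries, and they ran from 91.6% to 100% with a median of 97.8% in the Ikaros series and from 86.5% to 100% with a median of 95.6% in the Control series.

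Of the other testis-expressed genes 3 of 5 had a cluster. Slc25a31, the testis form of the mitochondrial ADP/ATP carrier, was at 94.4% ± 1.1 in the Ikaros series and 93.0% ± 3.3 in the Control series (chr3:40708588-40709358; SD, n = 18 each). The lowest Control value was again in Control 0 h replicate 1, at 81.5%, and without that library the Control mean was 93.7% ± 1.7 (SD, n = 17). Rpl10l, the testis copy of a ribosomal protein gene, was measured 389 bp downstream of its start and was at 96.0% ± 2.3 and 96.3% ± 1.5 (chr12:66283897-66284012). Its lowest value, 87.7%, was in Ikaros 24 h replicate 2, the library that was also lowest for Hormad2. Tex101, a surface protein of germ cells, had the lowest mean of the 17, with 92.1% ± 3.3 and 92.3% ± 3.1 (chr7:24672006-24672234).

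Levels were not uniform within the clusters. The 17 clusters held 471 CpGs, of which 363 (77.1%) had a mean over 95%, 40 were under 90%, 9 under 80% and 2 under 50%. The 40 lay in 8 clusters. Hormad1, Hormad2, Stag3, Sycp1, Sycp3, Rpl10l, Asz1, Tex15 and the upstream cluster of Dazl had every CpG over 90%. Since the authors smoothed the levels over 80 bp, neighbouring CpGs are not separate measurements and a value at the edge of a cluster rests on neighbours on 1 side.

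The deepest drop was at the downstream edge of the Slc25a31 cluster. There the level was 88.2% at 411 bp after the start, 46.3% at 473 bp and 34.6% at 503 bp. At 503 bp the Ikaros libraries ran from 32.0% to 45.0% and the Control libraries from 24.0% to 42.5%, so that the ranges overlapped, with means of 38.7% ± 4.2 and 30.4% ± 4.3 (SD, n = 18 each). Smc1b had a similar edge, with 88.2% at 200 bp after the start and 60.7% at 273 bp, and was at 87.8% at its other edge, 268 bp before the start. At 273 bp its means were 64.8% ± 6.0 in the Ikaros libraries (SD, n = 18) and 56.4% ± 6.3 in the Control libraries (SD, n = 17). These single positions were picked for their low levels and were not tested. Ddx4 was at 81.6% at 127 bp and the downstream cluster of Dazl at 81.0% at 117 bp after the nearest start, with Ikaros and Control means within 3 percentage points of each other.

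Sohlh2 was at 89.5% at 44 bp and 80.2% at 688 bp, and Fkbp6 at 88.7% at 15 bp after the start.

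The sequences shown hold 3 low stretches upstream of the start. In Tex101 the level was 97.8% at base -184, then 66.5% ± 6.7 at -99 and 72.6% ± 7.8 at -72 (SD, n = 34 each), and 93.5% at -7. In Mael it was 92.6% at -191, 87.2% at -114 (SD 3.6, n = 35) and 98.4% at -17. In Slc25a31 the CpG at -181 was at 73.4% ± 16.3 (SD, n = 36), with a median of 76.0%, against 97.8% at -46. Control 0 h replicate 1 was listed at 0% at this CpG and at 13.7% at -128. Over the 36 libraries, the mean of each Slc25a31 CpG from -89 to the start was over 97%. A CpG that was empty in 1 or more libraries is left out of the cluster means above, which held for some CpGs of 12 of the 17 clusters. Among these were the CpGs of Smc1b from -64 bp onwards, so that its mean covers 18 of 41 positions, and the 7 CpGs of Tex101 from -184 to -72, so that 8 of 15 remain. The mean of Sycp1 covers 14 of 31 positions and none of those in the sequence shown. The low stretch of Mael and the end of the Sohlh2 cluster from 688 bp were left out as well. With all positions used, all 17 clusters still had a mean over 90%, the lowest being Tex101 with 90.5%, while Smc1b moved to 91.3%, Mael to 96.6% and Sohlh2 to 94.2%.

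**Figure D3:**
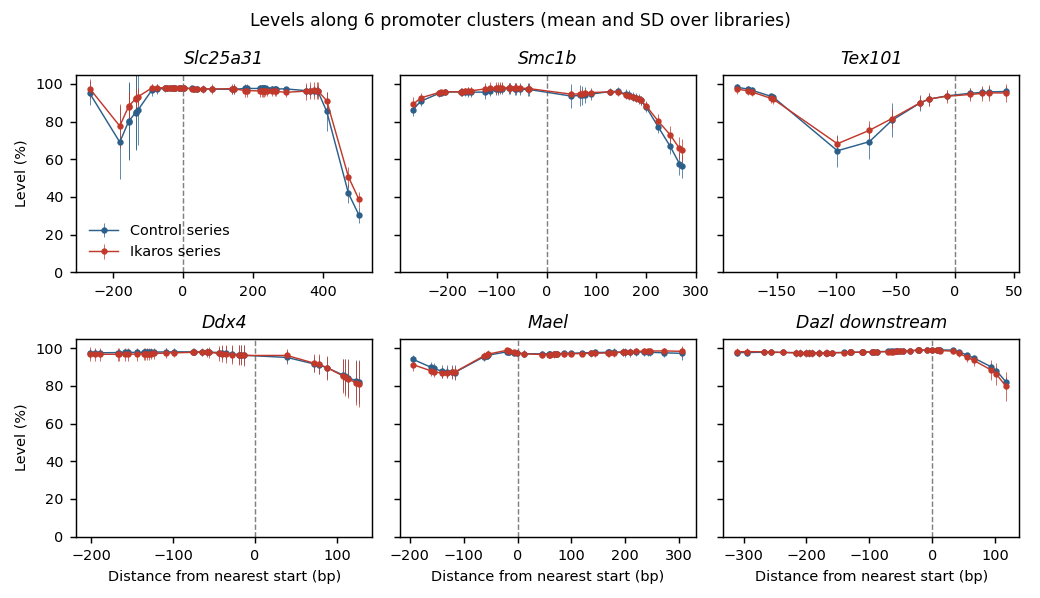
Mean level (%) of each listed CpG against its distance from the nearest annotated start (bp, dashed line at the start) in 6 clusters, with error bars of 1 SD over the libraries of the Control series (blue) and the Ikaros series (red). Slc25a31 ends at 34.6% and Smc1b at 60.7%, and Tex101 dips to 66.5% upstream of its start.

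The design asks whether nuclear Ikaros changes methylation over 24 h, and the first comparison was that of the series over all time points. It was made on M-values, log2 of level over 1 minus level, with the time point as a factor, in limma over 16734 clusters with Benjamini-Hochberg adjustment. This comparison holds the 0 h libraries as well and sets separately transduced cell pools against each other. A difference between the pools and an effect of nuclear Ikaros cannot be told apart in it. None of the 17 germline clusters passed an adjusted p of 0.05 (0 of 17), where 4.84% of all clusters did. At an unadjusted p under 0.05 there was 1 of 17 (Tex15), against 14.8% of all clusters. A p that misses the threshold does not show that the series were equal, and the sizes of the differences say more. In percentage points of the level, Ikaros minus Control ran from -1.68 for Sycp1 to 2.53 for Tex15, with a median of -0.14, and 13 of 17 were within 1 point. Over all clusters the median was 0.04, and their share within 1 point was not counted. On the M scale 9 clusters had the higher mean in the Ikaros series and 8 in the Control series, and on the level scale the Ikaros mean was higher at 8. The difference of Sohlh2 changes its sign between the scales.

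Tex15 had the smallest p of the comparison. Its levels were higher in the Ikaros series by 0.78 on the M scale (SE 0.34, 95% interval 0.08 to 1.48, limma adjusted p = 0.256). The difference was positive within each of the 3 replicate numbers, with 2.03, 5.17 and 0.38 percentage points. It rests on 2 positions. With all 32 listed positions it was 0.43 on the M scale, with means of 96.0% ± 3.7 and 95.3% ± 3.6, and without replicate 2 it was 0.31. Over the alternatives its adjusted p ran from 0.147 to 0.813. Sycp1 had the largest difference in the other direction, -0.49 (SE 0.36, 95% interval -1.22 to 0.25, limma adjusted p = 0.574), and by replicate number it was 1.85, -2.60 and -4.29 percentage points. On the M scale it was -1.04 without replicate 1 and -0.029 without replicate 3. For the remaining 15 clusters the limma adjusted p was between 0.596 and 0.987. The same sign within all 3 replicate numbers was found at 5 of the 17 clusters (Hormad1, Sycp3, Fkbp6, Tex15 and the downstream cluster of Dazl). Without Control 0 h replicate 1, a choice made after seeing the data, it was found at 4, Hormad1, Sycp3, Tex15 and Mael. The replicate 1 difference of Fkbp6 then went from 2.53 to -0.13 percentage points, and that of the downstream cluster of Dazl from -0.27 to 0.0033. Signs can agree by chance, and the share of agreement over all clusters was not counted. Neither count therefore sets the named clusters apart.

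**Figure D4:**
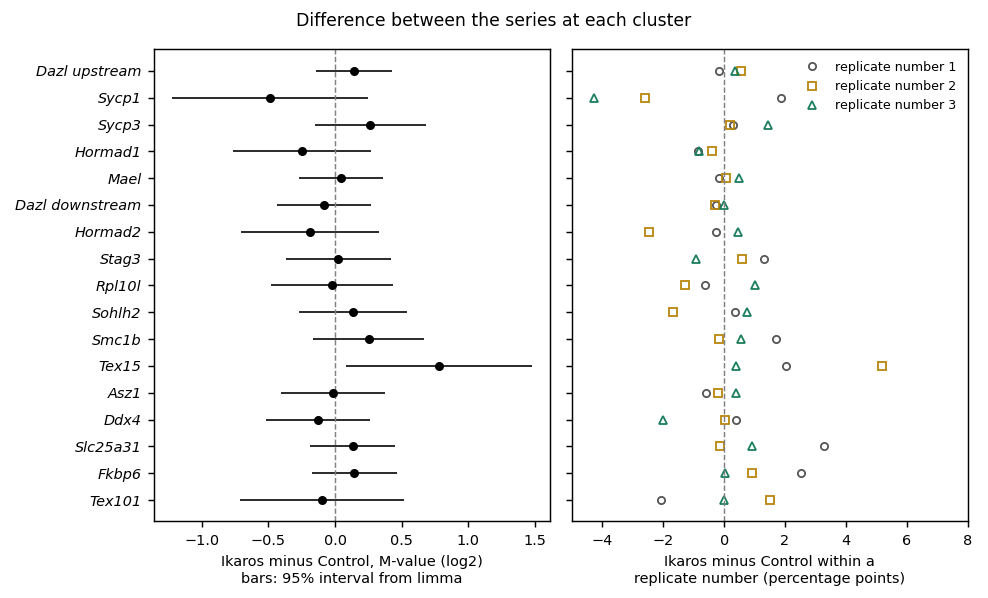
Left, difference between the series (Ikaros minus Control, M-value on the log2 scale) of each cluster with its 95% interval from limma. Right, the same difference in percentage points within each replicate number (mean of 6 libraries against 6). All intervals but that of Tex15 (0.08 to 1.48) include 0, and the signs by replicate number agree at 5 of 17 clusters, or at 4 without Control 0 h replicate 1.

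At 0 h, before induction by the study's methods, only 3 libraries per series could be compared. In limma with adjustment 0 of 17 clusters differed between the series, against 0.215% of all clusters. An unadjusted p under 0.05 was found at 1 of 17, against 9.55%. It was Tex101. Its Ikaros libraries were at 83.6%, 93.4% and 92.1% and its Control libraries at 96.9%, 92.8% and 100%, so that 1 Ikaros value exceeded the lowest Control value. The difference was -1.79 on the M scale (SE 0.60, limma adjusted p = 0.265). The Control values of 96.9% and 100% came from replicates 1 and 3, the libraries with most empty values. Without Control 0 h replicate 1 and Ikaros 24 h replicate 2 the difference was -1.92 with an unadjusted limma p of 0.00797. Without Control 0 h replicate 3 it was -1.11 with an unadjusted limma p of 0.0809. Without Control 0 h replicates 1 and 3 it was -0.68 with an unadjusted limma p of 0.390, with 1 Control library left at 0 h that was assumed to vary like the others. With a replicate number left out in both series it was -1.37 with an unadjusted limma p of 0.104 without replicate 1, which also holds the Ikaros value of 83.6%, and -1.23 with an unadjusted limma p of 0.0708 without replicate 3. Without replicate 2, which keeps the Control libraries with most empty values, it was -2.78 with an unadjusted limma p of 0.00218. With positions of any sample it was -1.76 with an unadjusted limma p of 0.00209 (limma adjusted p = 0.177). The unadjusted limma p was 0.00673 with levels, 0.00669 with the replicate block and 0.00696 without Control 24 h replicate 2. The count at an unadjusted p depended on the libraries left out too, and on the scale. With levels and every library kept it was 4 of 17 (Tex101, Slc25a31, Fkbp6 and the upstream cluster of Dazl), against 10.9% of all clusters. Without replicate 1 in both series it was 0 of 17, against 6.51%. It was 4 of 17 without Control 0 h replicate 3 (Fkbp6, Rpl10l, Slc25a31 and Hormad2), against 10.0% of all clusters, 6 of 17 without replicate 3 in both series, against 9.23%, and 0 of 17 without Control 0 h replicates 1 and 3, against 6.17%.

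Change over time was tested within each series. In the Ikaros series 0 of 17 clusters changed by limma's F test with adjustment and 0 of 17 at an unadjusted p under 0.05, where the background was 0% and 5.22% of all clusters. In the Control series it was likewise 0 of 17 by both, against 0.0120% and 4.83%. For a course over time that differed between the series, 0 of 17 passed the adjustment, against 0% of all clusters, and 1 of 17 had an unadjusted p under 0.05, against 5.12%. That cluster was again Tex101 (limma adjusted p = 0.745). Its unadjusted limma p was 0.00704 with all libraries, 0.0571 without replicate 1 and 0.0589 without replicate 3, and stayed between 0.00842 and 0.0352 under the 8 other alternatives.

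The 3 clusters that varied most between libraries are given by condition. Tex101 was at 89.7% ± 5.3, 90.1% ± 2.4, 92.5% ± 0.9, 92.6% ± 3.2, 92.4% ± 0.6 and 95.5% ± 3.6 in the Ikaros series from 0 to 24 h (SD, n = 3 each). In the Control series it was at 96.6% ± 3.6, 93.5% ± 3.6, 90.8% ± 0.1, 91.5% ± 1.5, 90.9% ± 3.6 and 90.6% ± 1.1 at the same times. The Ikaros means were lower than the Control means at 0 and 2 h and higher from 6 h on, but both ends of the course hold libraries that stood apart, Control 0 h replicates 1 and 3, Ikaros 24 h replicate 2 and Control 24 h replicate 2. The unadjusted limma p for a different course was 0.0352 without Control 0 h replicates 1 and 3, 0.0285 without Control 0 h replicate 1 and Ikaros 24 h replicate 2, and 0.0168 without Control 24 h replicate 2. The difference between the series over all times was -0.10 on the M scale and 0.16 without Control 0 h replicates 1 and 3. At 24 h the Ikaros libraries were at 91.6%, 98.8% and 96.1% and the Control libraries at 90.1%, 89.8% and 91.9%, with 1 overlapping pair of values. Sycp1 was at 99.0% ± 1.8, 97.7% ± 3.3, 99.9% ± 0.2, 95.6% ± 6.3, 97.4% ± 4.5 and 91.5% ± 8.3 in the Ikaros series, and between 96.6% ± 4.6 and 99.4% ± 0.5 in the Control series (SD, n = 3 each). Its 24 h Ikaros libraries were at 100%, 91.1% and 83.5%, so that the lower mean came with a wide spread. Tex15 ran from 93.7% ± 1.8 at 2 h to 98.1% ± 0.8 at 18 h in the Ikaros series and from 90.3% ± 3.3 at 2 h to 97.4% ± 2.3 at 0 h in the Control series.

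**Figure D5:**
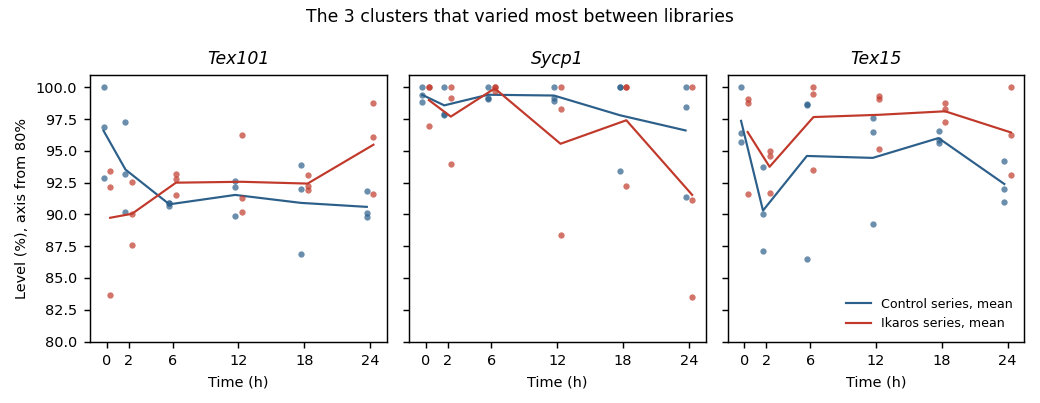
Level (%, axis from 80%) of the Tex101, Sycp1 and Tex15 clusters against time (h) in the Control (blue) and Ikaros (red) series, with 1 point per library and lines through the means of 3. The Tex101 means go from 89.7% to 95.5% in the Ikaros series and from 96.6% to 90.6% in the Control series, and none of these courses passed limma's adjusted threshold.

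Other genes of the same processes were taken from lists drawn up with knowledge of earlier results. Of 40 other germline genes 15 had a promoter level, with a median of 95.2%, and they split into high and low. Levels over 90% were found at 9, the highest being Sycp2 (98.2%), of the lateral elements, and Meioc (98.1%), which maintains meiotic prophase. Prdm14, a regulator of primordial germ cells, was at 89.7%. Under 10% were 5, of which Mei4, a factor of meiotic DNA breaks, and Syce2, of the central element, were lowest with 0.319% and 0.55%. Ythdc2, Meiob and Hspa2 were at 1.18%, 1.96% and 9.58%. None of the 15 passed the series comparison in limma (0 of 15, against 4.84% of all clusters), and 2 of 15 had an unadjusted p under 0.05, against 14.8% of all clusters.

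Pluripotency genes outside the listed factors could be measured at 11 of 20 promoters. Over 90% were 9 of them, the highest being Trim71 (98.1%) and Klf4 (98.1%). The lowest was Klf2 (1.09%), a factor also used in lymphocytes. Tfcp2l1, a transcription factor of the naive stem cell state, was at 85.7%. It passed the series comparison with 88.2% ± 2.7 in the Ikaros and 83.3% ± 2.5 in the Control series (SD, n = 18 each), a difference of 0.54 on the M scale (SE 0.11, limma adjusted p = 0.00235). Tbx3 passed in the other direction, with 95.8% ± 1.7 and 97.6% ± 0.9 and a difference of -0.67 (SE 0.15, limma adjusted p = 0.00401). The ranges of the series overlapped at both. Both calls held without Control 24 h replicate 2, but that of Tfcp2l1 was lost without replicate 1 (limma adjusted p = 0.114) or replicate 3, and that of Tbx3 without replicate 3 (limma adjusted p = 0.222). Of the 11, then, 1 passed in each direction, against 4.84% of all clusters called in either direction. At an unadjusted limma p under 0.05 there were 3 of 11 (Tfcp2l1, Tbx3 and Klf2), against 14.8% of all clusters. The 9 housekeeping promoters with a level, of 12, had a median of 0.229% and a highest value of 0.898%, at Tbp. Tbp was also the 1 housekeeping promoter to pass, with 1.10% ± 0.54 and 0.695% ± 0.342 (0.26 on the M scale, SE 0.08, limma adjusted p = 0.0372). Its call was lost with levels in place of M-values and without replicate 2 (limma adjusted p = 0.522) or replicate 3. The cluster also lay within 1000 bp of a start of Psmb1. Both means were near 1%, the lower limit of the levels behind the M-values.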

How the data were processed

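The 36 RRBS libraries came from the B3 line. Reads were trimmed and mapped by the authors to GRCm38 (Bismark 0.10.1), and the authors smoothed the methylation of CpG clusters with the BiSeq package. They deposited each level as a fraction from 0 to 1 and, separately, M-values on a log2 scale from levels limited to 0.01 to 0.99. Coverage is no part of these tables, so depth by position is unknown here and no counting error or coverage minimum was used.

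Listed positions at most 100 bp apart were joined into clusters, and the positions filled in all libraries were averaged for each cluster, so that 16734 of 18009 clusters could be tested. A cluster belonged to a gene within 1000 bp of a GENCODE M21 start (Python 3.11.15, numpy 2.4.6, pandas 2.3.3, pysam 0.24.0). All clusters were fitted in R 4.3.3 with limma 3.58.1 and called at an adjusted p under 0.05, and this fit was tested on simulated data. Groups, replicates and batches came from the labels. Replicate numbers 1 and 3 mark batches 1 and 4, and number 2 marks batch 2 at 0 h and batch 3 later, so numbers pair the samples, although the deviations of same-numbered samples had a mean correlation of -0.01 over 18 pairs (lowest -0.04, highest 0.02). The genes, gene lists and tests were chosen with earlier results of these data known. Every listed gene was accounted for. Values by condition were given for clusters past a threshold, with a mean of 10% to 90%, or among the 3 with the largest SD, and of each list the 2 lowest, 2 highest and called promoters. Other members of short lists (Prdm14, Ythdc2, Meiob, Hspa2 and the factors in the closing section) were named after their values were seen.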

Additional observations from a re-analysis of the deposited data

How the results depend on the processing

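Under every alternative that was run, 0 of the 17 clusters passed the threshold in each of the 5 limma comparisons. These were levels in place of M-values, a replicate block, positions with a value in any sample and each replicate number left out. For the series comparison they also included batch as a block, positions within 1000 bp only, a window of 500 bp, protein-coding transcripts only, leaving out Control 24 h replicate 2, and leaving out Control 0 h replicate 1 with Ikaros 24 h replicate 2. Chosen after seeing the data were the same omissions for the other comparisons that hold those libraries and for the median level, and leaving out Control 0 h replicates 1 and 3, which had the most empty values, for the series comparison and, with replicate 3 also alone, for the comparison at 0 h and the course over time. The smallest adjusted p of the series comparison was 0.147. Few clusters were called over the whole data as well, so that 0 of 17 says little about these clusters. With levels in place of M-values 906 of 16734 clusters differed between the series and 71 at 0 h. With levels, 0 changed over time in either series and 0 differed in their course. Without replicate 1, 2 or 3 the course differed at 7, 3 and 5 of all clusters. With the replicate block 820 of all clusters differed between the series, against 810 without it, and the block changed no call at the 17 clusters. The median level was 96.1% and stayed between 95.9% and 96.4%.

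The sign of the series difference was less stable. Of 187 recomputed differences 169 kept it and 18 did not, at 8 clusters whose differences ran from -0.19 to 0.13, and the cause was not tested. With a replicate number left out, the M-value differences ran from -0.34 to 0.034 for Ddx4, -0.018 to 0.40 for Sohlh2, -0.42 to 0.10 for Hormad2, -0.13 to 0.27 for Stag3, -0.26 to 0.10 for Rpl10l, -0.32 to 0.10 for Tex101, -0.13 to 0.10 for Asz1 and -0.049 to 0.11 for Mael. Without Control 0 h replicate 1 and Ikaros 24 h replicate 2 it was -0.084 for Stag3, 0.21 for Rpl10l and 0.014 for Asz1, and without Control 24 h replicate 2 it was 0.0029 for Asz1. Without Control 0 h replicates 1 and 3 it was 0.039 for Rpl10l and 0.16 for Tex101. With levels Sohlh2 was at -0.20 percentage points, and with positions of any sample Mael was at -0.00055. Leaving out replicate 1, 2 or 3 changed the series count over all clusters to 399, 543 and 368. A coverage minimum was not run, as the tables hold no coverage.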

Other observations

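Genes for DNA methylation and for repression of germline promoters were measured at 18 of 21 promoters, and 14 were under 10%, among them Dnmt3a (1.09%), Dnmt3b (0.734%), Uhrf1 (0.271%) and Trim28 (0.185%). E2f6, a repressor of germ cell genes, was the exception at the high end, with 97.6% ± 1.0 in the Ikaros series and 97.5% ± 0.9 in the Control series (SD, n = 18 each) over 69 positions at chr12:16810739-16811392. Of its 7 annotated transcripts, 5 start within 1000 bp of that cluster. Intermediate levels were found at Setdb1, a histone methyltransferase, with 33.8% (SD 8.8 over 36 libraries), Mga, a MAX partner, with 47.0% (SD 12.7), and Tet2, a methylcytosine dioxygenase, with 49.0% (SD 12.2). In limma's series comparison 0 of the 18 promoters passed after adjustment, against 4.84% of all clusters, and before it 2 were under 0.05, against 14.8% of all clusters.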
